A study of Mus musculus with 2 samples.

Results

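Binding of CTCF in the heart of B6NCrl mice at postnatal day 0 was measured by ChIP-seq, in which DNA bound by the protein is pulled down with an antibody and sequenced. The account here is of the 1000 strongest binding sites, called members. They were chosen by the signal value that the authors deposited for each peak of the optimal list, which is the longer of the 2 lists that passed the irreproducible discovery rate (IDR) filter: the 1000 highest values on chromosomes 1 to 19 were taken. The optimal list holds 44533 peaks, of which 43380 lie on chromosomes 1 to 19, so members were 2.31% of the peaks they were drawn from. The study has 1 group, made of 2 libraries named replicate 1 and replicate 2, and no treatment, mutant or control group to set beside it. Both libraries carry the same tissue and donor identifiers and the sex of the animal was not collected, so differences between them may be technical in origin. The heart was not sorted into cell types, and a site bound in fewer cells cannot be told apart from one bound less often in every cell.

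CTCF is a DNA-binding protein with a row of zinc fingers, several of which read a core motif that has a direction. Cohesin that extrudes a chromatin loop tends to halt at CTCF, most often at a pair of sites whose cores point towards each other, and such sites bound domains and separate enhancers from promoters. Many CTCF sites are bound in most tissues, and CTCF binding at some motifs is reduced by CpG methylation.

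Sequence was read at each summit, the position of highest signal that the authors gave for a peak. A core is a match of at most 2 mismatches to the 14-base CTCF core consensus on either strand. The sequences below are of mm10 (GRCm38) and run 5' to 3'. Capitals mark the core. The first 4 are the highest ranked members, from rank 16 on, with 2 cores within 100 bp of the summit and outside exons. They are shown on the plus strand with both cores in capitals, because 2 cores in 1 peak were far more frequent in members than in weaker peaks. This set was chosen after the values were seen.
Miga1 (rank 16, chr3:152315804-152315881): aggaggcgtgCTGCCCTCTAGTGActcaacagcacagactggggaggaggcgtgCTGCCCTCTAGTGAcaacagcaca
Lrrc74a (rank 17, chr12:86795998-86796091): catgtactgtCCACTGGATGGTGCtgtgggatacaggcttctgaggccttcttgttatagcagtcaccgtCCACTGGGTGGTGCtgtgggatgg
Srgap1 (rank 18, chr10:122051988-122052057): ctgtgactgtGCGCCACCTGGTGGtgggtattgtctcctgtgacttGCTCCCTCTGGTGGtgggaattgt
Ewsr1 (rank 22, chr11:5115068-5115162): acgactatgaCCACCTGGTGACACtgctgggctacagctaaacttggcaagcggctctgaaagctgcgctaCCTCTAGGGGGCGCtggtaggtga

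The Miga1 site lies in an intron of Miga1, which encodes a protein of mitochondrial fusion, and gave signals of 214 in replicate 1 and 173 in replicate 2. Both of its cores lie on the minus strand, 44 bp apart, with 1 mismatch each, and the bases around them repeat as well. The Lrrc74a site is intergenic, 61.68 kb downstream of that gene's 5' end, with signals of 195 and 187 and plus strand cores 60 bp apart. The Srgap1 site, intergenic and 4.71 kb upstream of that gene, gave 205 and 176 and has minus strand cores 36 bp apart. The Ewsr1 site lies in an intron of Emid1, 15.85 kb upstream of the RNA-binding protein gene Ewsr1, with signals of 198 and 174 and plus strand cores 61 bp apart. In each of these 4 members the 2 cores point the same way.

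The next 8 are the highest ranked members from rank 16 on with a core of 0 mismatches outside exons, each read in the direction of its core so that the flanking bases line up. They show how much the flanks of near-ideal cores vary.
Srgap1 (rank 18, chr10:122051982-122052031, minus strand): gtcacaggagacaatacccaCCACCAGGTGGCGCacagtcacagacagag
Vps8 (rank 25, chr16:21412826-21412875, minus strand): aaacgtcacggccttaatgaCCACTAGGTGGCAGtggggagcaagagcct
Kcnk18 (rank 26, chr19:59239612-59239661, plus strand): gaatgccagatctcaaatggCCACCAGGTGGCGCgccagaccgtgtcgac
Kctd15 (rank 29, chr7:34672086-34672135, minus strand): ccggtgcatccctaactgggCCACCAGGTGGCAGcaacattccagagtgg
Cript (rank 40, chr17:87044611-87044660, minus strand): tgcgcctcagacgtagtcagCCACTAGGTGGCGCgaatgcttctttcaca
Gse1 (rank 44, chr8:120319676-120319725, plus strand): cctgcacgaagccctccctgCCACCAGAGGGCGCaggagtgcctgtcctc
Lsm11 (rank 46, chr11:45945007-45945056, plus strand): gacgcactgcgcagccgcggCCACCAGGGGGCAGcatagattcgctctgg
Klhl31 (rank 50, chr9:77596508-77596557, plus strand): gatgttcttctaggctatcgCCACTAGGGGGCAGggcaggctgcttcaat

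Of these 8, only the Klhl31 site has a single core within 100 bp. It lies 39.93 kb upstream of Klhl31, a kelch-family gene of striated muscle, with signals of 194 and 156. The Lsm11 site, 92 bp upstream of the gene for a U7 small nuclear ribonucleoprotein subunit, has 3 cores and signals of 190.1 and 161. The Vps8 site lies 10.29 kb upstream of a gene for a subunit of an endosomal tethering complex, with signals of 203 and 165. The Kcnk18 site lies 20.44 kb downstream of the 5' end of a potassium channel gene, with signals of 186 and 181. In all 8 members replicate 1 was the higher library.

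A core was absent within 50 bp of the summit in 60 members, and in 51 of these the best match had 3 mismatches. The 3 highest ranked members outside exons with no match of up to 3 mismatches within 50 bp are shown on the plus strand, 30 bases before the summit base and 29 after it.
Pon1 (rank 279, chr6:5110556-5110615): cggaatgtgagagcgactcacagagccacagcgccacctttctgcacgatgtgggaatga
Urb2 (rank 679, chr8:124052242-124052301): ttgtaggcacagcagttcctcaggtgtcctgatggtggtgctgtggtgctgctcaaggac
Scd4 (rank 731, chr19:44363627-44363686): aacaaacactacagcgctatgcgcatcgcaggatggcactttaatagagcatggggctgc

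Named for the nearest protein-coding 5' end, the Pon1 site lies in an intron of Ppp1r9a and gave 143 and 133, and the Urb2 site lies in an intron of Gm20388 and gave 122 and 129. The Scd4 site, 30.57 kb from the gene for a stearoyl-CoA desaturase, gave 112 and 136 and has 1 core farther out, within 100 bp. Only 9 of the 1000 members lacked a match of up to 3 mismatches, and 4 of these 9 had a core of at most 2 mismatches within 100 bp.

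Signal among the members ran from 425 down to 239 with a median of 259 (259.49), against a median of 59.2 in the other 42380 optimal peaks of these chromosomes. Rank 100 stood at 316 and the upper and lower quartiles at 279.9 and 247. The members at the last 10 ranks had signals of 238.75 to 238.94 and the first 10 peaks outside had 238.46 to 238.73, so the limit does not fall in a gap. These values chose the members and are given as a description. To see what else the members share, they were set beside the next 1000 peaks by rank and beside all 42380 others, which include that next 1000. Peaks are not replicates of a condition, so no test was made over them. Intervals given with shares are exact 95% binomial ones, covering only the error of counting, and the spread over libraries is that of each library's own 1000 strongest peaks.

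Nearly every member carried a core, but so did the peaks ranked just below. A core lay within 50 bp of the summit in 940 members (94.0%, interval 92.3 to 95.4%), in 91.8% of the next 1000 and in 72.9% of all others. The libraries' own 1000 strongest peaks gave 93.55% ± 0.0707 (SD, n = 2). Windows of the same length 1000 bp to the left and right of the members held a core in 3.6% and 3.3%. A core of 0 mismatches was found in 29.3% of members and 28.8% of the next 1000, against 11.3% of all others. With at most 1 mismatch the shares were 70.0%, 71.3% and 41.7%. By the quality of the best core, members did not stand apart from the next 1000 peaks.

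The number of cores did. At least 2 cores that do not overlap lay within 100 bp of the summit in 227 members (22.7%, interval 20.1 to 25.4%), in 9.4% of the next 1000 (7.66 to 11.4%) and in 4.38% of all others (4.19 to 4.58%). The libraries' own 1000 strongest peaks gave 22.9% in replicate 1 and 22.1% in replicate 2. In windows of that length 1000 bp away from the members, 7.3% and 7.1% held a core and 0.4% and 0.1% held 2. When the remaining list was divided by rank into 42 full classes of 1000 peaks, the share with 2 cores ran from 2.3 to 9.4%, below that of the members in every class. The share fell steeply within the members: 64 of the 100 strongest had 2 cores, then 42, 27 and 17 of the next 3 sets of 100, and 9 of those ranked 901 to 1000. Ranked by each library alone, 61 and 60 of the 100 strongest peaks of replicates 1 and 2 had 2 cores, and 9 and 11 of those ranked 901 to 1000.

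**Figure D1:**
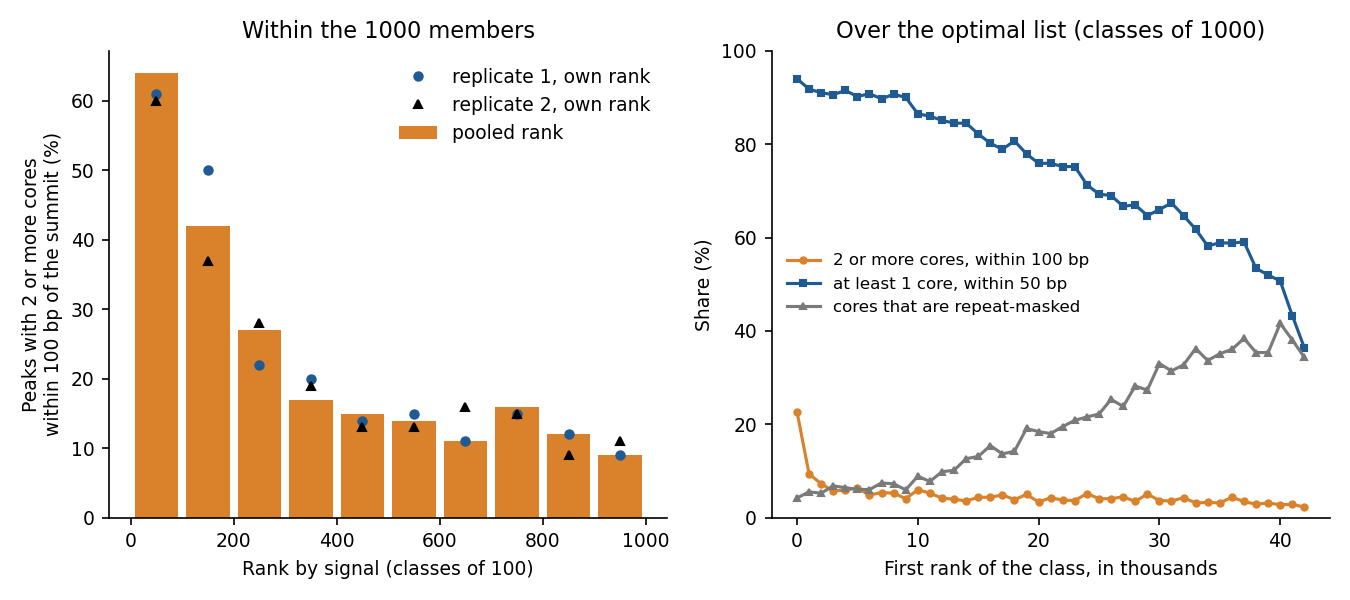
Left, share of peaks with 2 or more cores within 100 bp of the summit, in classes of 100 by rank, for the pooled rank (bars) and each library's own rank (points); it falls from 64% to 9% over the members. Right, the same share over the optimal list in classes of 1000, with the share with at least 1 core within 50 bp and the share of cores that are repeat-masked; the first class stands at 22.7% against 9.4% in the second.

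Members with 2 or more cores had the highest median signal in both libraries. The 227 members with 2 or more cores had a median signal of 153 in replicate 1 and 134 in replicate 2. The 732 members with 1 core had 136 and 122, and the 41 with none within 100 bp had 134 and 122, close to those with 1 core. Signal chose the members, so these medians are a description. Peak width moved with the number of cores, at a median of 195 bp with 2 or more and 169 bp with 1, and its part in the signal was not tested. Read depth is not given, so the counting error of a single signal is unknown.

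From the start of one core of a pair to the start of the other, the median distance was 57 bp in members (quartiles 46 and 72 bp, range 14 to 154 bp), and 125 of 227 pairs (55.1%) were 40 to 69 bp apart. In the next 1000, 47.9% of 94 pairs were at that distance, with a median of 46 bp, and in all other optimal peaks with 2 cores 39.8% of 1856 pairs, with a median of 51 bp. Pairs on the same strand made up 147 of 227 (64.8%) in members, 45.7% in the next 1000 and 52.0% in all others. Cores facing each other made up 42 pairs and cores facing away 38. The summit lay between the cores in 199 of 227 members (87.7%), against 68.1% in the next 1000 and 63.8% in all others. With the search narrowed to 25 bp of the summit, a core was found in 80.0% of members and 89.1% of the next 1000.

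**Figure D2:**
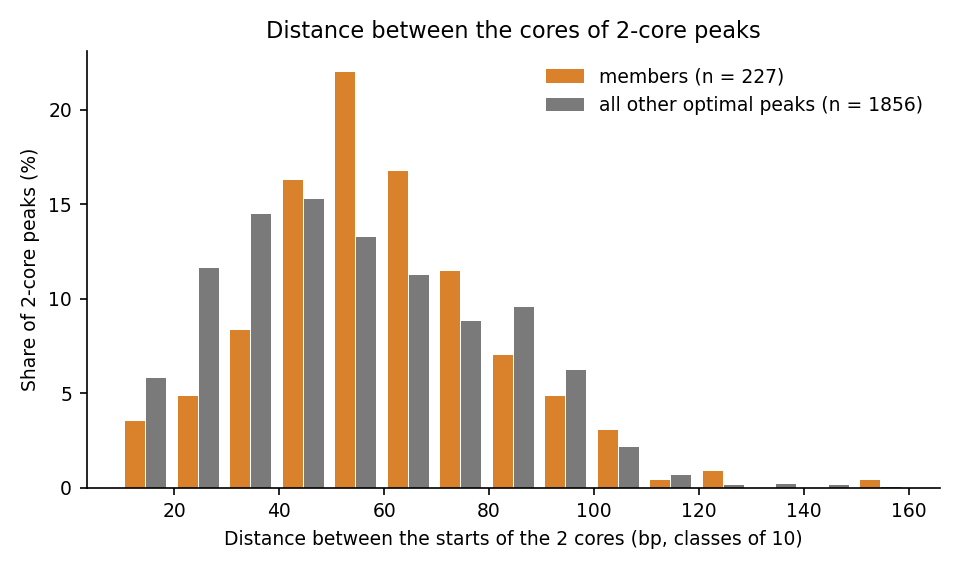
Distance between the starts of the 2 cores of a peak (horizontal axis, bp, in classes of 10) as a share of the peaks with 2 cores (vertical axis, %), for 227 members and 1856 other optimal peaks. Members peak at 50 to 59 bp with 22.03%, where the others have 13.3%.

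Some pairs were near copies of each other, as at Miga1 and Lrrc74a. The 10 bases before and the 10 after each core were compared in core direction, in pairs at least 34 bp apart. Of 135 such same-strand pairs in members, 24 (17.8%) had at least 12 of these 20 bases equal, and 10 had identical cores. In the next 1000, 2 of 33 (6.06%) had at least 12 equal bases, and in all other optimal peaks 56 of 762 (7.35%). Among pairs on opposite strands, 0 of 66 in members and 0 of 678 in the others reached 12 equal bases. Of the second cores in members, 6 of 227 lay in repeat-masked sequence, against 3 of 94 in the next 1000 and 287 of 1856 in all others.

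Outside the core, the bases next to it were more constrained in members than in all other peaks together, and about as constrained as in the next 1000. Aligned on 940 cores, the most frequent bases above 45% from position -20 to position 25 (1 being the first core base, with no position 0) read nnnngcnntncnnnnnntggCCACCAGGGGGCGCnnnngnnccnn, with the core in capitals and n where no base passed. Information over the 20 bases before the core summed to 2.47 bits in members, 2.30 in the next 1000 and 1.27 in all others. Over the 16 bases after it the sums were 1.78, 1.82 and 1.10 bits. Among flanking positions where 1 base passed 45%, the largest differences from all others were at position 19, where G made up 50.5% against 36.1%, and at position -3, where T made up 49.9% against 36.9%. The next 1000 were close to the members here as well, with 51.1% and 47.4%. Within the core, C at position 4 made up 63.4% of members, 67.2% of the next 1000 and 48.9% of all others.

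**Figure D3:**
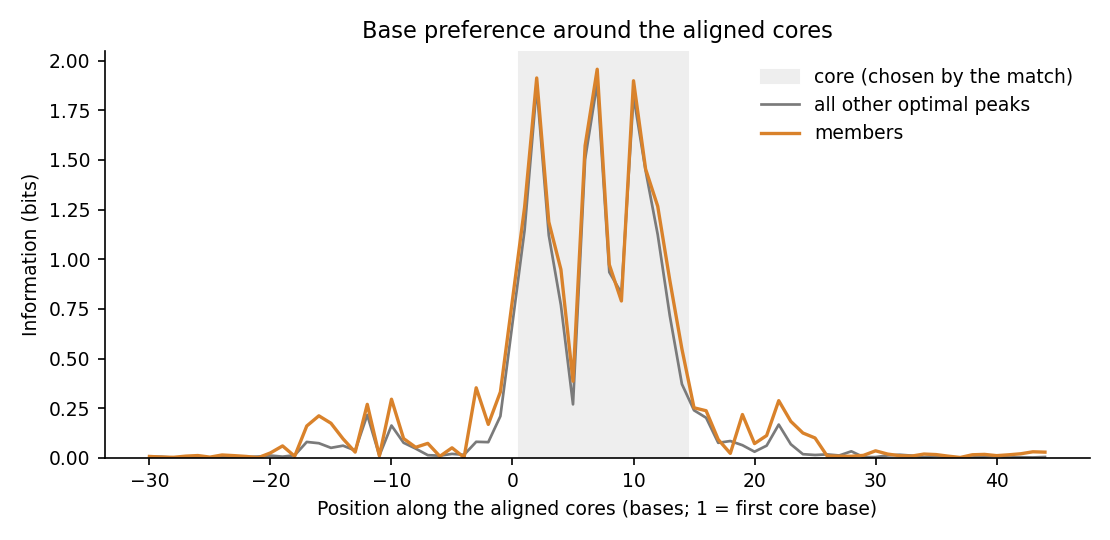
Information content in bits (vertical axis, at most 2) at each base along the aligned cores (horizontal axis, position 1 being the first core base) for members and for all other optimal peaks with a core. The shaded core was chosen by the match; before it the members sum to 2.47 bits over 20 bases and the others to 1.27.

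Members were rich in CpG and poor in repeats. At least 1 CpG lay within 50 bp of 89.4% of summits, against 89.5% in the next 1000 and 74.9% in all others, and 27.3%, 22.1% and 14.6% had 5 or more. At core bases 12 and 13 a CpG was present in 41.5% of members, 42.4% and 29.1%. Mean GC content within 50 bp was 57.3% in members (57.28% ± 0.428 over libraries, n = 2), 56.2% in the next 1000 and 52.8% in all others. Methylation was not measured here. A core was repeat-masked in 40 of 940 members (4.26%, interval 3.06 to 5.75%), in 5.56% of the next 1000 and in 18.5% of all others. Over the 42 other rank classes this share ran from 5.27 to 41.6%.

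By position in genes, members resembled other CTCF sites, with more of them between genes. Promoter members, with a gene 5' end at most 1000 bp from the summit, made up 15.1% of members (15.15% ± 1.63 over libraries, n = 2), 13.3% of the next 1000 and 14.2% of all others. Intergenic members made up 40.4% (39.3% ± 2.12), against 39.6% and 34.6%. Introns held 37.0% against 39.8% and 43.98%, other exons 6.2% against 5.7% and 4.78%, and coding exons 1.3% against 1.6% and 2.43%. Members with no core within 100 bp were promoter sites in 26.8% of cases, against 14.6% of members with 1 core. A core was present in 90.1% of promoter members, 81.95% of promoter peaks in the next 1000 and 53.9% of all other promoter peaks.

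Most promoter members at protein-coding genes lay on the outer side of the gene, as did such peaks in the next 1000. Of 109 members within 1000 bp of a protein-coding 5' end, 91 (83.5%) were upstream of it, with a median distance of 115 bp. The libraries' own strongest peaks gave 83.3% and 82.4% upstream. The next 1000 gave 83.2%, and all other such peaks 56.3% at a median distance of 232 bp. The core pointed along the gene in 62 of 91 such members with a single direction (68.1%), in 70.3% of the next 1000 and in 57.9% of all others. Among the strongest, the summit lay 54 bp upstream of Comtd1, with signals of 205 and 172, and 69 bp upstream of Adprhl2, which encodes a hydrolase of ADP-ribose on proteins, with 196 and 179. That at Med4, a Mediator subunit gene, lay 85 bp upstream with signals of 196 and 157, and that at Mtnr1a, a melatonin receptor gene, 191 bp upstream with 175 and 169. Rab2b, a small GTPase gene of membrane traffic, had its summit 76 bp downstream of the 5' end with signals of 193 and 162, and no core within 100 bp.

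Coding exon members were few. That nearest Mybpc3, the gene of cardiac myosin-binding protein C, does not lie in it but in a coding exon of Spi1, which encodes the blood cell transcription factor PU.1. It gave 211 in replicate 1 and 163 in replicate 2 (187 ± 33.5, SD, n = 2). A member in a coding exon of Def6, 6.47 kb upstream of the nuclear receptor gene Ppard, gave 149 and 139. One in a coding exon of Zfp219, 6.62 kb upstream of Tmem253, gave 147 and 126. All 13 coding exon members had a core, against 94.0% of all members. So did 15 of 16 coding exon peaks in the next 1000 and 67.1% of all other coding exon peaks. At least 2 cores were present in 5 of the 13, in 2 of the 16 and in 6.89% of all others.

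Members seldom lay far from protein-coding genes. The median distance to the nearest protein-coding 5' end was 17.1 kb (17.39 kb ± 1.07 over libraries, n = 2), against 20.03 kb in the next 1000 and 23.2 kb in all others. It was over 100 kb in 8.5% of members, 9.0% and 17.5%. The member farthest from any gene 5' end lay in an intron of Rad51b, a DNA repair gene, 315.6 kb into the gene, with signals of 129 and 119. Others were in introns of Dnah11, 159.3 kb from any 5' end, with 151 and 130.1, and of Flt1, which encodes a VEGF receptor, 141.9 kb from its 5' end, with 122 and 119. All 5 members farthest from any 5' end lay inside genes, the other two in Rab3c (140 and 112) and Skap2 (144 and 116).

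Within 10 kb of the 5' end, 432 of 20807 protein-coding genes of chromosomes 1 to 19 (2.08%) had a member, and 51.9% had some optimal peak. The gene lists below were chosen with earlier results of these data known and are described by their counts beside that 2.08%. Of 32 genes of ion channels and calcium handling in heart, 4 had a member (12.5%, interval 3.51 to 29.0%). This interval lies above 2.08%, but 25 of the 32 (78.1%) had some optimal peak, also above the 51.9% over all genes. No test was made over the lists. Jph2, whose product holds the calcium release units of heart muscle together, had one 3.43 kb upstream with signals of 169.7 and 145. The member near Kcnh2, a potassium channel gene of repolarisation, lies 9.404 kb upstream of it and 3.802 kb upstream of Nos3, the endothelial nitric oxide synthase gene, with 158 and 143.

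In the other lists of this kind the intervals were wide and included the 2.08% over all protein-coding genes. Of 30 sarcomere genes Mybpc3 had a member (3.33%, interval 0.0844 to 17.2%). Of 34 cardiac transcription factor genes Foxc2, a forkhead gene of vessel development, had one (2.94%, interval 0.0744 to 15.3%). The Foxc2 member gave signals of 170.1 and 128 at 2.69 kb upstream. None of 32 genes of fatty acid and mitochondrial energy metabolism had one (interval up to 10.9%), and 21 of the 32 had an optimal peak. Of 27 endothelial genes Nos3 and Sox18 had one, and of 26 fibroblast and matrix genes Mmp2, a matrix protease gene, with 185 and 159. Among 49 genes of Wnt, Notch, BMP, FGF and Hedgehog signals, Nog, which encodes a BMP antagonist, had 124 and 126, and Wnt7b had 116 and 123. The lists of smooth muscle and pericyte genes (15), blood and immune genes (26) and neural genes (24) had none. Their intervals reached 21.8, 13.2 and 14.2%, so the lists are too short to show a lack. These counts are of sites near genes and say nothing on transcription.

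Counts in gene families were small as well. Of 75 ribosomal protein genes 5 had a member (6.67%, interval 2.20 to 14.9%). Some optimal peak was near 61 of the 75 (81.3%), against 51.9% of all genes. At Rpl5 and Rps3a1 the summit was 19 and 37 bp upstream of the 5' end, with signals of 141 and 151 at Rpl5 and of 146 and 117 at Rps3a1. At Rps21, Rpl22 and Rps19 it was 5.92 to 7.39 kb away. Of 55 Rab GTPase genes 5 had one, at Rab2b, Rab17, Rab32, Rab3b and Rab20, and at Rab32 it lay 20 bp upstream with 123 and 131. Of 31 cell cycle genes 3 had a member (9.68%, interval 2.04 to 25.8%). They were Ccnd2 for cyclin D2 (147 and 167), E2f2 (133 and 129.9) and Cdkn1a for the inhibitor p21 (113 and 128). None of 39 Hox genes had a member (interval up to 9.03%), and 30 of the 39 had an optimal peak. None of 42 collagen chain, 67 histone or 49 keratin genes had a member either. Their intervals reached 8.41, 5.36 and 7.25%, so like the Hox genes they cannot be told apart from the 2.08% over all genes. Optimal peaks of any rank were near 25, 33 and 15 of them. None of 326 vomeronasal receptor genes had a member, but only 7 had any optimal peak, against 51.9% of all genes. The 1087 olfactory receptor genes had 2 with a member, Olfr94 and Olfr95, which share 1 site, and only 74 with any optimal peak. The 383 Zfp genes had 2 with a member and 172 with any optimal peak.

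Members followed the density of CTCF peaks along the genome, with chromosome 11 above the rest. There were 0.417 members per Mb of known sequence overall. Chromosome 11 held 94 members, or 0.792 per Mb, and 2.89% of its optimal peaks were members. Chromosome 14 was lowest on both measures, with 30 members, 0.247 per Mb and 1.70%. Across the 19 chromosomes members per Mb had a Spearman correlation of 0.888 with optimal peaks per Mb, 0.818 with GC content and 0.779 with protein-coding genes per Mb. Members are themselves counted among the optimal peaks, so a part of the first correlation is built in. These are descriptions over chromosomes that share the same libraries, and peak density, GC content and gene density go together.

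Along a chromosome, neighbouring members were a median of 0.796 Mb apart (quartiles 0.263 and 2.43 Mb, 981 gaps). Over the 42 other rank classes of 1000 peaks the median gap ran from 0.836 to 1.38 Mb, above that of the members in every class. Gaps of at most 100 kb numbered 117 in members and 56 to 108 in the other classes. Of 2473 bins of 1 Mb, 648 (26.2%) held a member, and 88 bins with 3 or more held 302 of the 1000. The most in 1 bin was 7, reached on chromosome 4 at 138 to 139 Mb, which holds Pink1, Camk2n1 and a cluster of Pla2g2 phospholipase genes, and on chromosome 12 at 112 to 113 Mb, which holds Akt1, Jag2 and Inf2. Another optimal peak of any rank lay within 10 kb of 61.4% of members, 61.3% of the next 1000 and 52.4% of all others.

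The closest members stood as pairs of separate peaks. In the 5 closest pairs, 0.824 to 2.45 kb apart, the best cores of both sites lay on the same strand (at Dnah17, by matches of 3 mismatches). Among all neighbouring members up to 50 kb apart whose core had a single direction, 29 of 61 pairs (47.5%) shared a strand. The closest pair, 824 bp apart and 31.41 and 32.23 kb from the 5' end of Tex35, had signals of 127 and 126 at one site and 135 and 128 at the other. The Dnajb12 pair, in an intron of that chaperone gene and 1800 bp apart, had 143 and 130.1 at one site and 131 and 116 at the other. Both pairs are shown in mm10 in the direction of their cores, with the core in capitals, because they are the closest pairs outside exons in which each site has a core.
Tex35, first site (chr1:157076426-157076475, minus strand): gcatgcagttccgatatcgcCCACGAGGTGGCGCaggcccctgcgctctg
Tex35, second site (chr1:157077250-157077299, minus strand): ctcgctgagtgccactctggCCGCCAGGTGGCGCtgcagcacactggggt
Dnajb12, first site (chr10:59893161-59893210, plus strand): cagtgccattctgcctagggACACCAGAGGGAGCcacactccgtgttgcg
Dnajb12, second site (chr10:59894958-59895007, plus strand): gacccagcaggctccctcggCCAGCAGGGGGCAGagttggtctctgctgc

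At the other extreme, 44 gaps exceeded 10 Mb. The widest, 40.99 Mb on chromosome 12 between the members near Cdhr3 and Syt16, was not empty of CTCF: it held 435 other optimal peaks, the strongest at a signal of 232, and 160 protein-coding genes. Gaps of 31.88 Mb on chromosome 16 (Nfkbiz to Bach1) and 29.05 Mb on chromosome 4 (Gm11808 to Ube2j1) held 252 and 257 peaks, the strongest at 237 and 238. Peaks between neighbouring members lie under the limit for members by definition, and in all 3 gaps the strongest came close to it.

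The strands of neighbouring cores depended on their gap. At gaps of up to 500 kb, 94 of 328 neighbouring pairs of members (28.7%, interval 23.8 to 33.9%) faced each other, 24.7% faced away and 46.6% shared a strand. Pairs facing each other were 79 of 312 (25.3%) in the next 1000 and 24.1% in all others. Both shares lie inside the interval of the members. At gaps of up to 50 kb, a class chosen after the values were seen, 6 of 61 pairs faced each other (9.84%, interval 3.70 to 20.2%) and 42.6% faced away. The libraries' own strongest peaks gave 8 of 58 and 8 of 52 facing each other. In the next 1000 these shares were 20.4% and 46.9% of 49 pairs, and in all other optimal peaks 20.5% and 27.1%. Neighbours were taken within each group, among peaks whose core had a single direction. Pairs of members can thus have other optimal peaks between them, with a median of 8 such peaks within 100 kb of a member. Pairs of all others come from a far denser list, so the next 1000 are the closer comparison. At 50 to 500 kb, 33.0% of 267 pairs of members faced each other and 20.6% faced away, against 26.2% and 22.1% in the next 1000 and 30.7% and 19.9% in the others. With 61 pairs, the interval of the shorter class still reaches close to the share of the others.

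**Figure D4:**
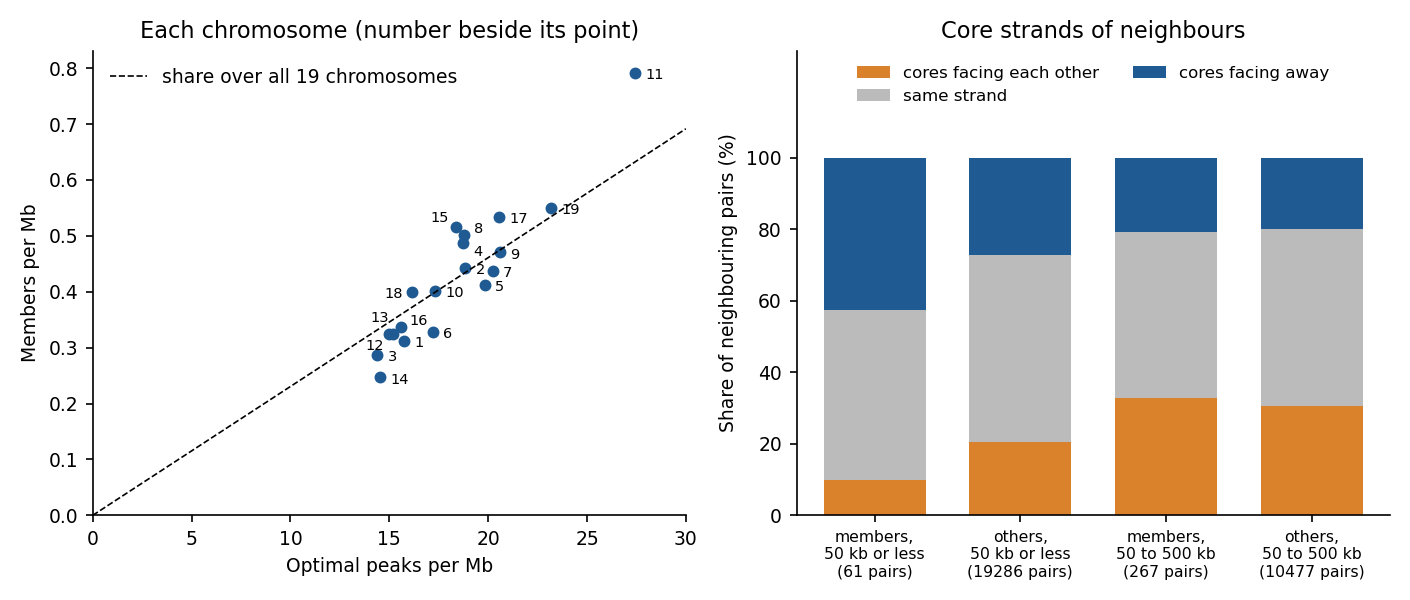
Left, members per Mb against optimal peaks per Mb for each of the 19 chromosomes (number beside each point), with a dashed line at the overall share of 2.31%; chromosome 11 lies highest at 0.792 members per Mb. Right, shares of neighbouring pairs whose cores face each other, share a strand or face away, at gaps of up to 50 kb and of 50 to 500 kb. Neighbours were taken within each group, so those of all other optimal peaks come from a far denser list than those of members. Among members 9.84% face each other in the first class and 33.0% in the second.

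All 1000 members were found in the relaxed list of each library, which holds 300000 peaks, and in the conservative IDR list. So were 97.0% (both relaxed lists) and 89.1% (conservative list) of all other optimal peaks, so these counts separate members little from the rest. Of the 1000 strongest peaks of replicate 1, 697 (69.7%, interval 66.7 to 72.5%) matched one of the 1000 strongest of replicate 2, with summits at most 100 bp apart. Of the members, 849 were among the 1000 strongest of replicate 1, 841 among those of replicate 2, 696 among both and 6 among neither. None ranked below 2736 in replicate 1 or 2233 in replicate 2. Summits of the libraries lay a median of 5 bp apart and within 10 bp in 84.0% of members, 82.8% of the next 1000 and 56.1% of all others found in both.

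Signals in replicate 1 ran from 109 to 225 with a median of 138, and in replicate 2 from 99.7 to 207 with a median of 123. Replicate 2 was lower at 887 members, with a median log2 ratio of replicate 2 to replicate 1 of -0.17 and an SD of 0.14. The SD was 0.15 in the next 1000 and 0.50 in all others. The values entered the pooled signal that chose the members, so this is a description, and unscaled signals include any difference in depth. The lowest ratio, -0.61, was at a site 1.56 kb upstream of Arid3a, a transcription factor gene, with 158 and 104. Next came sites 1.18 kb upstream of Ext2, a heparan sulfate synthesis gene (169 and 111), near Stab2 (150.3 and 101.05) and near Etv3 (147 and 99.7). The highest, 0.30, was at a site 21.85 kb from Cmtm6 with 125 and 154, followed by sites nearest Scd4 (112 and 136), Ribc2 (129 and 153) and Dym (113 and 132). No member was more than 0.5 from the median ratio, as was none of the next 1000, against 23.5% of all others.

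**Figure D5:**
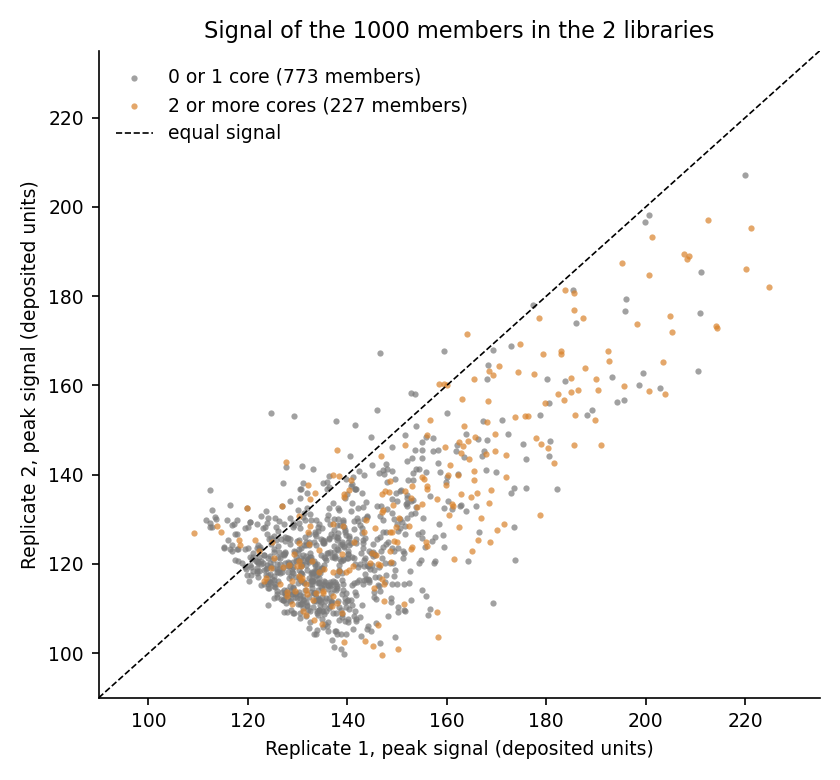
Peak signal of the 1000 members in replicate 1 (horizontal axis) and replicate 2 (vertical axis), in the deposited units, with members of 2 or more cores in orange and a dashed line of equal signal. Most points lie below the line, since replicate 2 was lower at 887 members, and the empty lower left corner comes from choosing members by the pooled signal.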

How the data were processed

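ChIP-seq peaks of the 2 libraries were used as 5 lists deposited by the authors (mm10, per the labels): relaxed lists of each library and of both pooled, and the conservative and optimal IDR lists. The signal value of a peak is the authors' own, deposited for each peak, above 0 and not rescaled here; pooled values are close to the sum of those of the libraries. Which aligner and caller were run is not given in the sources used here, nor is read depth. Peaks were ranked by signal, and the member rule took chromosomes 1 to 19. The members and gene lists were chosen with earlier results of these data known. Sequence and repeat masking came from GRCm38, and genes from GENCODE M21, with promoter taken first, then coding exon, other exon, intron and intergenic. Peaks in different lists were matched by summits within 100 bp, and a core was called masked with at least 7 lower-case bases. Gene lists numbered 33, and 18 listed names matched no protein-coding record.

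Genes named are the nearest to members ranked 16 to 35 (some are left out here, and 2 list genes are not reported), the strongest promoter and coding exon members, the farthest, the closest pairs, the widest gaps, the extreme ratios and the strongest of each list. Alternatives were each library alone, the conservative list, 500 or 2000 members, and other mismatch limits, windows, gaps and annotations. Shares have exact binomial 95% intervals or a mean ± SD over the 2 libraries' own 1000 strongest peaks. Sequences printed leave out exons and 1 chromosome. Functions for cores, context and matching were tested on simulated data. Python 3.11.15, numpy 2.4.6, pandas 2.3.3, scipy 1.17.1 and pysam 0.24.0 were used.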

Additional observations from a re-analysis of the deposited data

How the results depend on the processing

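Values are over the 1000 members, and the shift of each was set against the spread between the 2 libraries' own strongest peaks. Gene counts were instead judged by a fold limit, and agreement of the libraries by its binomial interval. Leaving out a library gives the same 2 lists that set the spread, so those shifts are a description. No paired analysis was possible because the libraries form 1 group. Leaving out a library gave ranges of 93.5 to 93.6% for members with a core, 14 to 16.3% for promoter, 37.8 to 40.8% for intergenic, 4.487 to 4.492% for masked cores, 89.0 to 90.3% for a CpG, 0.747 to 0.799 Mb for the median gap, 62.3 to 62.6% for another peak within 10 kb, 402 to 448 for genes with a member, 28.9 to 29.97% for neighbours facing each other and 22.1 to 22.9% for 2 cores. The conservative list moved the masked share to 4.15%. The 500 strongest peaks gave 94.6% with a core, 4.23% masked, a gap of 1.69 Mb, 60.6% with another peak within 10 kb, 226 genes, 27.3% facing each other and 33.0% with 2 cores. The 2000 strongest gave 92.9%, 4.898%, 0.355 Mb and 836 genes, with 16.05% having 2 cores; gaps and gene counts follow the number of peaks. The core share was 70.0% at 1 mismatch, 99.1% at 3, 80.0% within 25 bp and 95.9% within 100 bp. The promoter share was 11.4% within 500 bp, 24.3% in the widest window, 19.8% with all transcript 5' ends and 10.9% with protein-coding genes alone, which put 48.4% between genes. Masked cores were 5.64% when 1 masked base sufficed, and 4.0% of summit bases were masked. A CpG lay within 25 bp in 77.9% and within 100 bp in 95.5%. Another peak lay within 5 kb in 40.7% and within 20 kb in 82.4%. Genes with a member numbered 261 within 5 kb and 1965 within 50 kb. Neighbours facing each other were 24.7% up to 200 kb (26.9% in the next 1000 peaks) and 27.1% at 1 mismatch (26.3%). The share with 2 cores, whose alternatives were chosen after seeing the data, was 7.8% at 1 mismatch (1.4% in the next 1000 peaks), 54.9% at 3 (38.6%), 14.3% within 50 bp (4.9%) and 27.8% within 200 bp (15.2%), above the next 1000 peaks in each. Agreement of the libraries was 74.65% for the 2000 strongest. Of the 78 alternatives, 31 stayed within these limits, some of them given above. Read depth is unknown, and 2 libraries of 1 tissue limit every error given.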
